A study of Mus musculus with 4 samples.

Results

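The serum amyloid, complement and acute-phase genes are 9 genes, Saa1, Saa2, Saa3, Lcn2, Hp, Serpina3n, C3, Cfb and Pigr. They were taken by name from the 30360 genes of a table of RNA counts in single cells of mouse colonic organoids, which are cultures of colon tissue in a gel, and each name matched 1 gene. The cultures came from the distal colon of 16-week-old wildtype mice and of Tnfr2-/- mice, which lack TNF receptor 2 in the whole body. Cultures in the treated groups were given 20 ng/ml of TNF (tumor necrosis factor) between day 1 and day 6 after passage 5, and the other groups received vehicle and are called untreated. On day 7 the cultures were dissociated, apoptotic cells were removed, and 10x Chromium libraries that read the 3' ends of transcripts were prepared. There was 1 culture and 1 library in each of 4 groups. Rows of 4 values are given in the order of wildtype without and with TNF, then Tnfr2-/- without and with TNF. With 1 library per group there is no spread between replicates and no test, so every difference is between single cultures. A level is in CPM, the unique molecular identifiers (UMIs) of a gene per 1000000 UMIs of the same cells. The 95% intervals in brackets are exact Poisson intervals and cover counting error only. They take UMIs as independent, so they are too narrow where few cells hold most UMIs of a gene.

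Acute-phase genes encode secreted proteins whose blood levels change in infection and injury. The liver is their best known source, under the control of interleukin 6, interleukin 1 and TNF, but gut epithelium and fibroblasts also make several of them. Complement is a set of proteins that cleave one another on the surface of microbes, with C3 at the step where the routes of activation meet. The transcription factors NF-kB, C/EBP and STAT are the usual inducers of these genes.

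The classes of cells were those of the deposited annotation, which covered 6120 of 6155 cells with 7 epithelial and 4 mesenchymal classes. Epithelial cells numbered 1128, 1163, 1023 and 858, and mesenchymal cells 1430, 306, 90 and 122. The median epithelial cell held 37246, 30306, 41057 and 37369 UMIs and the median mesenchymal cell 22643, 48633, 24549 and 37645. Among cell barcodes, 3 occurred in more than 1 library. The 7 mesenchymal markers (Pdgfra, Acta2, Col1a1, Col1a2, Col3a1, Dcn, Vim) summed to 9202 to 15086 CPM in mesenchymal and 5.21 to 22.8 CPM in epithelial cells. The 5 epithelial markers summed to 8219 to 10270 CPM in epithelial and 109 to 575 CPM in mesenchymal cells. Tnfrsf1b, the gene that is deleted in Tnfr2-/- mice, was at 9.83, 14.0, 2.06 and 7.59 CPM over the cells with a class, so its UMIs were fewer but present in the libraries labelled Tnfr2-/-. Classes were very unevenly spread, which bears on every sum over a compartment: Absorptive had 319, 19, 11 and 1 cells, Progenitor.1 had 546, 335, 647 and 95, and Progenitor.2 had 62, 273, 233 and 716. Mesenchyme-Ifitm1 (892 cells) and Mesenchyme-proliferative (111) were classes of the wildtype untreated library, apart from 1 and 2 cells elsewhere. In both TNF libraries nearly all mesenchymal cells were Mesenchyme-Ptges (34, 304, 37 and 122). The differences over a compartment and the differences in makeup cannot be told apart, so values within Progenitor.1, Progenitor.2 and Mesenchyme-Ptges are set beside them.

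Saa1 (ENSMUSG00000074115), Saa2 (ENSMUSG00000057465) and Saa3 (ENSMUSG00000040026) lie side by side on chromosome 7 of GRCm38 in the GENCODE M21 annotation, at 46740497 to 46742980 (minus strand), 46751790 to 46754313 (plus) and 46711998 to 46715700 (minus), each with 4 exons. Their products bind lipids and retinol. Lcn2 (ENSMUSG00000026822; chromosome 2, 32384633 to 32388252, minus, 6 exons) encodes lipocalin 2, which takes iron-carrying siderophores away from bacteria. C3 (ENSMUSG00000024164; chromosome 17, 57203970 to 57228136, minus, 41 exons) encodes the central complement component. Promoter sequences from RefSeq (GRCm38.p6) were at hand for 7 of the 9 genes, Hp and Cfb being the others. Each was searched on both strands, from 250 bases before to 50 bases after the start, for a C/EBP motif (TTNNGCAA, or TTGCNNAA on the other strand), a STAT motif (TTCNNNGAA) and an NF-kB motif. A C/EBP match was found in 5 of 7, against 10.8% of 32851 promoters of the same length. The STAT motif was found in Pigr alone, at bases 39 to 47 after the start (8.30% of all promoters), and the NF-kB motif in none (8.46% of all promoters). The 5 promoters with a C/EBP match are shown because they include the genes with the largest differences in epithelial cells. Each run covers the 250 bases before the start, 5′ to 3′ on the strand of the gene, with the match in capitals.
Saa1, chr7:46742981-46743230, minus strand: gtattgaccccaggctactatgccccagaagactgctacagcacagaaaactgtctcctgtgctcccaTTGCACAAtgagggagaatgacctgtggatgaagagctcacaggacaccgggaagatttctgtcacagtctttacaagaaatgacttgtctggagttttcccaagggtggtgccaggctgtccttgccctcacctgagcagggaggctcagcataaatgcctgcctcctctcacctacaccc
Saa2, chr7:46751583-46751832, plus strand: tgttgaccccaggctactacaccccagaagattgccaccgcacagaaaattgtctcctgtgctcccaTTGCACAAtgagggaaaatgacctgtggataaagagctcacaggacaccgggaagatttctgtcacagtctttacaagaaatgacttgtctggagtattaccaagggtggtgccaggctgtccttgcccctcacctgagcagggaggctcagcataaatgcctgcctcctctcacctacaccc
Saa3, chr7:46715677-46715926, minus strand: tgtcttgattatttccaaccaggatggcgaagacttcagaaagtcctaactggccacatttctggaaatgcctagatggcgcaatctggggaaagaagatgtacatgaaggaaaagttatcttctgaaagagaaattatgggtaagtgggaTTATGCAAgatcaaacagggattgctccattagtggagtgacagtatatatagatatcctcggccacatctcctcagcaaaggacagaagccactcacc
Lcn2, chr2:32387740-32387989, minus strand: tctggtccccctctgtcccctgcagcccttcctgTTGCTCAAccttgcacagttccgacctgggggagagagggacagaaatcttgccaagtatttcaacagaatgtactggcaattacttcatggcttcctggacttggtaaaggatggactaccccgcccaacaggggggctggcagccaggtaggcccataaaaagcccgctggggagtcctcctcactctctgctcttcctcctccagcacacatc
C3, chr17:57228137-57228386, minus strand: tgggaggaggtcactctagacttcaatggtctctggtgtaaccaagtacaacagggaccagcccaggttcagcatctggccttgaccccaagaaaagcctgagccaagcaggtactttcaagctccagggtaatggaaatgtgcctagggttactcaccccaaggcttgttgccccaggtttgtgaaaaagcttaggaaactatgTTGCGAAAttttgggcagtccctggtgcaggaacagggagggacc
The match lay at bases -182 to -175 in Saa1, -183 to -176 in Saa2, -99 to -92 in Saa3, -216 to -209 in Lcn2 and -45 to -38 in C3. Saa1 and Saa2 had the same 8 letters there. A match is only a run of letters in this window, and says nothing about binding.

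The genes divided by compartment. Saa3, Lcn2, Hp, Serpina3n and C3 were higher in mesenchymal cells of every library, while Saa1 and Pigr were higher in epithelial cells of every library. In mesenchymal minus epithelial cells, 7, 8, 8 and 8 of the 9 genes reached 20 CPM on 1 side, which is the minimum used throughout. Of these, 5, 6, 6 and 6 were at least 2-fold higher in mesenchymal cells, where the background over all genes past the minimum was 25.1%, 21.2%, 23.1% and 20.9%. A further 2 in each library were at least 2-fold lower, with a background of 16.4%, 16.2%, 21% and 17.5%. Of all UMIs of Saa3 in cells with a class, mesenchymal cells held 99.8%, 98.9%, 96.0% and 75.4%, although they were the minority of the cells in 3 of the 4 libraries. For Lcn2 the share was 99.8%, 99.0%, 89.1% and 87.1%, and for C3 it was 99.6%, 79.1%, 96.0% and 86.6%. For Hp and Serpina3n it was above 98% everywhere. For Saa1 and Pigr it was at most 1.94%.

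**Figure D1:**
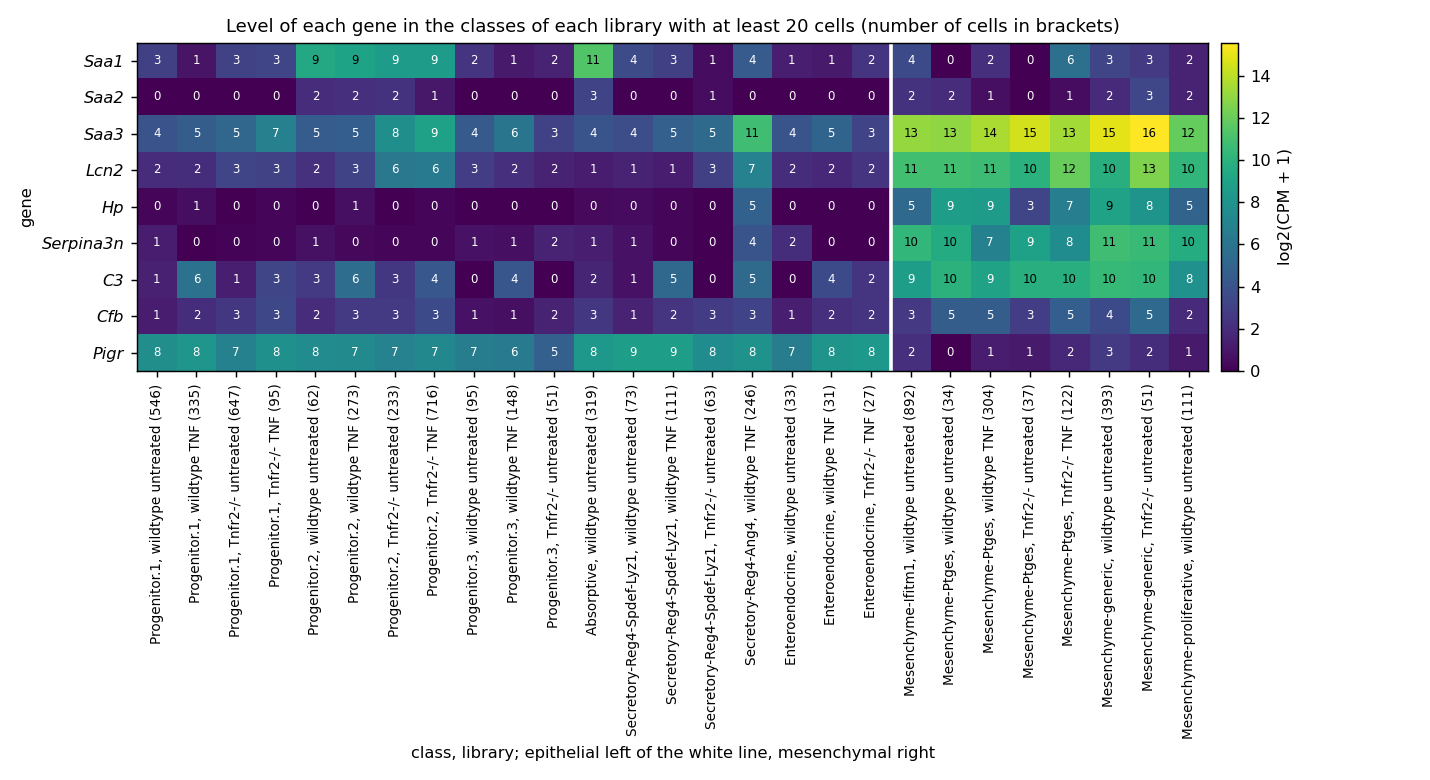
Level of each gene as log2(CPM + 1), by colour and rounded in the cell, in the 27 pairs of class and library with at least 20 cells, epithelial classes left of the white line and mesenchymal classes right. Saa3, Lcn2, Serpina3n and C3 are brightest right of the line and Pigr left of it, while Saa1 is bright in Absorptive and Progenitor.2 and Saa3 in Progenitor.2 of the Tnfr2-/- libraries.

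**Figure D2:**
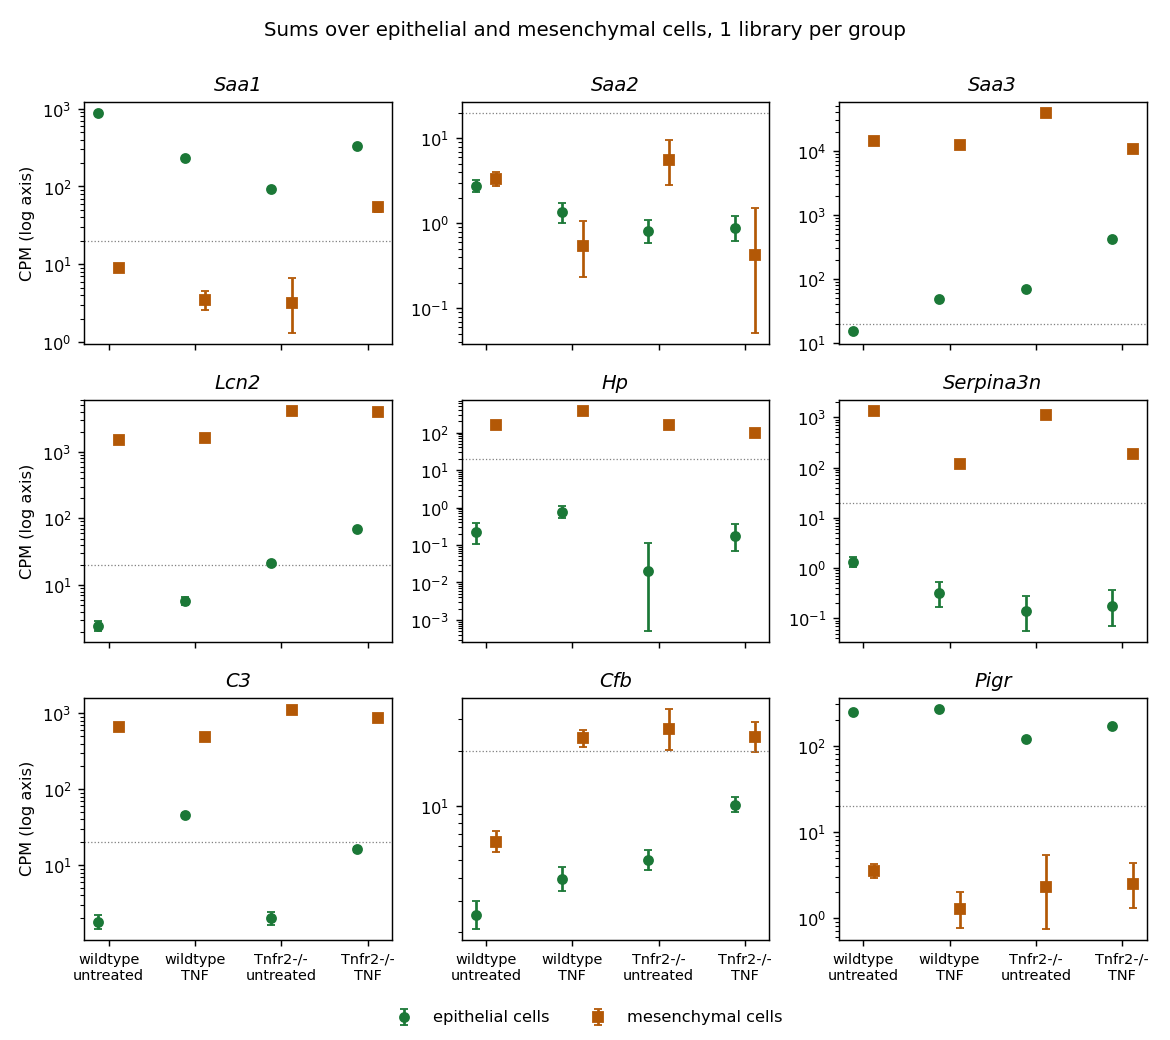
Level (CPM, log axis) of each gene summed over epithelial (circles) and mesenchymal (squares) cells of the 4 libraries, with 95% Poisson intervals and the 20 CPM minimum as a dotted line. C3 in epithelial cells stands highest in the wildtype TNF library, Saa3 and Lcn2 in epithelial cells stand highest in the Tnfr2-/- TNF library, and Serpina3n in mesenchymal cells is low in both TNF libraries.

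Saa1, a serum amyloid A found on lipoproteins in blood, was an epithelial gene of the Absorptive and Progenitor.2 classes. In epithelial cells its level was 875 (867–883), 234 (229–238), 91.9 (89.3–94.6) and 327 (321–332) CPM. The order was thus wildtype untreated, Tnfr2-/- TNF, wildtype TNF and Tnfr2-/- untreated, with no overlap of the intervals. It was 3.74-fold lower with TNF in wildtype (log2 -1.90) and 3.55-fold higher with TNF in Tnfr2-/- (log2 1.82; 3.44 to 3.67). Untreated, it was 9.52-fold lower in Tnfr2-/- than in wildtype (log2 -3.24). With TNF the genotypes differed by 0.48 on the log2 scale, under 2-fold.

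The classes behind these sums differed from library to library. Absorptive cells held 96.9% of the epithelial UMIs of Saa1 in the wildtype untreated library, 29.3% in the wildtype TNF library and 12.5% in the Tnfr2-/- untreated library. Progenitor.2 held 2.56%, 70.0%, 78.0% and 99.6%. Within Absorptive the level was 2659 CPM in 319 cells, 3275 in 19 cells and 1082 in 11 cells, and 119 in the single cell of the Tnfr2-/- TNF library. Within Progenitor.2 it was 671, 533, 366 and 383 CPM, so the 4 libraries lay within a 2-fold range there. TNF minus untreated in Progenitor.2 was -0.33 in wildtype and 0.06 in Tnfr2-/-, and Tnfr2-/- minus wildtype was -0.87 untreated and -0.48 with TNF. None of these 4 values reached 2-fold. In Progenitor.1 the level was 6.62, 0.767, 7.08 and 8.39 CPM, under the minimum in all 4 libraries.

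Within a class, Saa1 was uneven between cells. In Absorptive cells of the wildtype untreated library, 80.6% of cells had a UMI of Saa1 (61.2% after each cell was thinned to 5000 UMIs; 55.6 to 66.6). In Progenitor.1 of the same library, at a median of 43626 UMIs against 40871, the share was 7.14% (0.916% thinned). The highest 10% of the Absorptive cells, ranked by their UMIs of Saa1 (32 cells), held 48.1% of the gene's UMIs. In Progenitor.2 the highest 10% held 67.1%, 76.2%, 91.6% and 94.3%. Outside these cells the level in Progenitor.2 was 232, 140, 33.8 and 24.0 CPM. The cells were ranked by the same UMIs, so this describes how Saa1 was spread and tests nothing.

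In mesenchymal cells Saa1 was at 8.82, 3.47, 3.22 and 53.9 CPM. The value in the Tnfr2-/- TNF library came from 257 UMIs, of which 50.6% were in 1 cell. Of those mesenchymal cells, 17 of 122 (13.9%) also held RNA of epithelial cells and are called mixed cells. Mixed cells are mesenchymal cells with at least 20 UMIs of Krt8, Krt18, Epcam and Cldn7 together. Epithelial cells with at least 5 UMIs of Col1a1, Col1a2, Col3a1 and Dcn together are also mixed cells. Without mixed cells the difference of Tnfr2-/- minus wildtype with TNF was -0.17 on the log2 scale, from 3.62 with them, so the higher value was that of the mixed cells.

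Saa2 was under 20 CPM in all 4 libraries and in every class. In epithelial cells it was at 2.76, 1.35, 0.810 and 0.880 CPM, and in mesenchymal cells at 3.36, 0.544, 5.51 and 0.419 CPM. The highest value in a class was 15.1 CPM, in the 19 Absorptive cells of the wildtype TNF library. The transcripts of Saa1 and Saa2 were identical at 93.9% of aligned bases (609 and 606 bases), and at 92.4% over the last 300 bases, from which 3' libraries read. The split of reads between these 2 genes is therefore uncertain. Saa3 shared only 64.3% with Saa1 and 63.3% with Saa2.

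Saa3, the serum amyloid A made outside the liver by fibroblasts, fat cells and macrophages, was the mesenchymal member of the family. In mesenchymal cells its level was 14234, 12491, 39120 and 10894 CPM, that is 1.42%, 1.25%, 3.91% and 1.09% of all UMIs of these cells. The Tnfr2-/- untreated library stood above the other 3. It was 2.75-fold above wildtype untreated (log2 1.46) and 3.59-fold above Tnfr2-/- TNF (log2 of TNF minus untreated -1.84). TNF minus untreated in wildtype was -0.19.

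Among mesenchymal classes Saa3 was highest in Mesenchyme-generic, at 32011 CPM in wildtype untreated and 48851 in Tnfr2-/- untreated, the libraries with more than 1 such cell. Mesenchyme-Ifitm1 was at 8882 CPM and Mesenchyme-proliferative at 3796 in wildtype untreated. In Mesenchyme-Ptges, the class present in all 4 libraries, the level was 8198, 12394, 23618 and 10894 CPM. Within it Tnfr2-/- minus wildtype was 1.53 untreated and -0.19 with TNF, and TNF minus untreated was 0.60 in wildtype and -1.12 in Tnfr2-/-. The untreated values of this class rest on 34 and 37 cells, the wildtype ones with a median of 5755 UMIs against 48633 in wildtype TNF. After thinning to 5000 UMIs, 85.6%, 87.6%, 96.5% and 86.7% of mesenchymal cells had a UMI of Saa3. In epithelial cells the thinned share was 7.93%, 15.9%, 5.25% and 15.0%, and the unthinned share was 43.7%, 66.6%, 25.3% and 44.4%. Thinned shares leave out cells under 5000 UMIs. In wildtype TNF these included most of the 246 cells of the class Secretory-Reg4-Ang4, whose median was 1958 UMIs.

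In epithelial cells Saa3 was far lower, and each library of the order listed stood above the one before. It was at 15.2 (14.1–16.3), 47.8 (45.7–49.96), 69.4 (67.2–71.8) and 427 (421–434) CPM, with no overlap of intervals. TNF minus untreated was 1.59 in wildtype (3.15-fold) and 2.60 in Tnfr2-/- (6.15-fold). Tnfr2-/- minus wildtype was 2.12 untreated (4.58-fold) and 3.13 with TNF (8.94-fold; 8.53 to 9.37).

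RNA of mesenchymal cells in epithelial barcodes was measured from the 7 mesenchymal markers. Their level in epithelial cells was 0.0852%, 0.282%, 0.0262% and 0.0735% of that in mesenchymal cells (medians), and the highest marker was at 0.218%, 0.317%, 0.0926% and 0.142%. Saa3 was at 0.107%, 0.383%, 0.178% and 3.92%. In wildtype untreated it was thus within the range of the markers, and in wildtype TNF and Tnfr2-/- untreated above the highest by less than 2-fold, while in Tnfr2-/- TNF it was at 3.92% where the highest marker was at 0.142%. Lcn2 was at 0.161%, 0.359%, 0.526% and 1.78%, and C3 at 0.270%, 9.40%, 0.180% and 1.85%. Hp (0.0121% to 0.202%) and Serpina3n (0.0123% to 0.264%) stayed within the markers' range in 3 of 4 and 4 of 4 libraries.

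**Figure D3:**
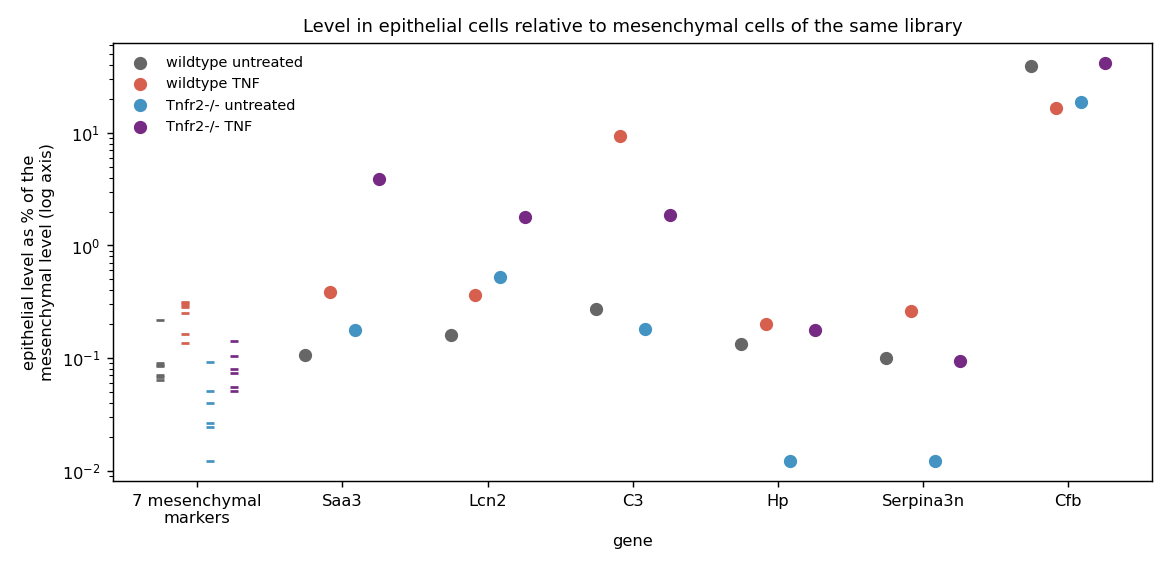
Level in epithelial cells as a percent of the level in mesenchymal cells of the same library (log axis), for the 7 mesenchymal markers (dashes) and 6 genes (circles), coloured by library. Values of 0 are not drawn. C3 in wildtype TNF and Saa3, Lcn2 and C3 in Tnfr2-/- TNF stand above the markers of their library, and Serpina3n lies among them or below, as does Hp except in Tnfr2-/- TNF. Cfb is at 16.8% to 42.1%, with 2.50 to 10.2 CPM in epithelial and 6.35 to 26.6 CPM in mesenchymal cells.

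The epithelial classes that held Saa3 differed by genotype. In the wildtype TNF library 46.6% of its epithelial UMIs were in Secretory-Reg4-Ang4, a class of that library alone with 246 cells, a median of 1958 UMIs and 1.23% of the epithelial UMIs. Saa3 in this class was at 14.5% of its mesenchymal level, and the 7 mesenchymal markers were at 4.28% to 18.3%, so the markers of the other compartment were there to the same degree. In the Tnfr2-/- libraries Progenitor.2 held 60.3% (untreated) and 96.5% (TNF) of the epithelial UMIs of Saa3, with 19.6% and 84.8% of all epithelial UMIs.

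In Progenitor.2 Saa3 was at 22, 23.7, 214 and 486 CPM. Both Tnfr2-/- libraries stood well above both wildtype libraries, by 9.71-fold untreated (log2 3.22; 7.02 to 13.8) and by 20.5-fold with TNF (log2 4.30; 18.3 to 23.0). TNF minus untreated was 0.10 in wildtype and 1.18 in Tnfr2-/-. In Progenitor.1 the level was 14.6, 22.7, 35.0 and 110 CPM, with the same order of libraries and Tnfr2-/- minus wildtype of 1.21 and 2.22.

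These levels were those of few cells. In Progenitor.2 of the Tnfr2-/- TNF library the highest 10% of cells (72 of 716) held 97.6% of the UMIs of Saa3, with 8.94% of all UMIs. Their level was 5305 CPM, against 12.6 CPM in the other cells. The highest cell was at 75248 CPM among its 41104 UMIs, had 0 UMIs of the 7 mesenchymal markers, and held 18.9% of the UMIs of Saa3 in the class. The mesenchymal markers summed to 7.95 CPM in the highest 10% and 8.46 CPM in the rest, and none of the 72 cells was a mixed cell. In the Tnfr2-/- untreated library the highest 10% (23 of 233 cells) held 98.5%, and 1 cell alone held 60.1%, or 1274 of 2120 UMIs. Without this cell the level there was 85.9 CPM in place of 214. In wildtype TNF the highest 10% (27 of 273 cells) held 33.9%, at 67.4 CPM against 17.8 CPM in the rest. The thinned shares above go the same way, since 5.25% of epithelial cells had a UMI of Saa3 in Tnfr2-/- untreated and 7.93% in wildtype untreated, although the level was higher in the former.

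**Figure D4:**
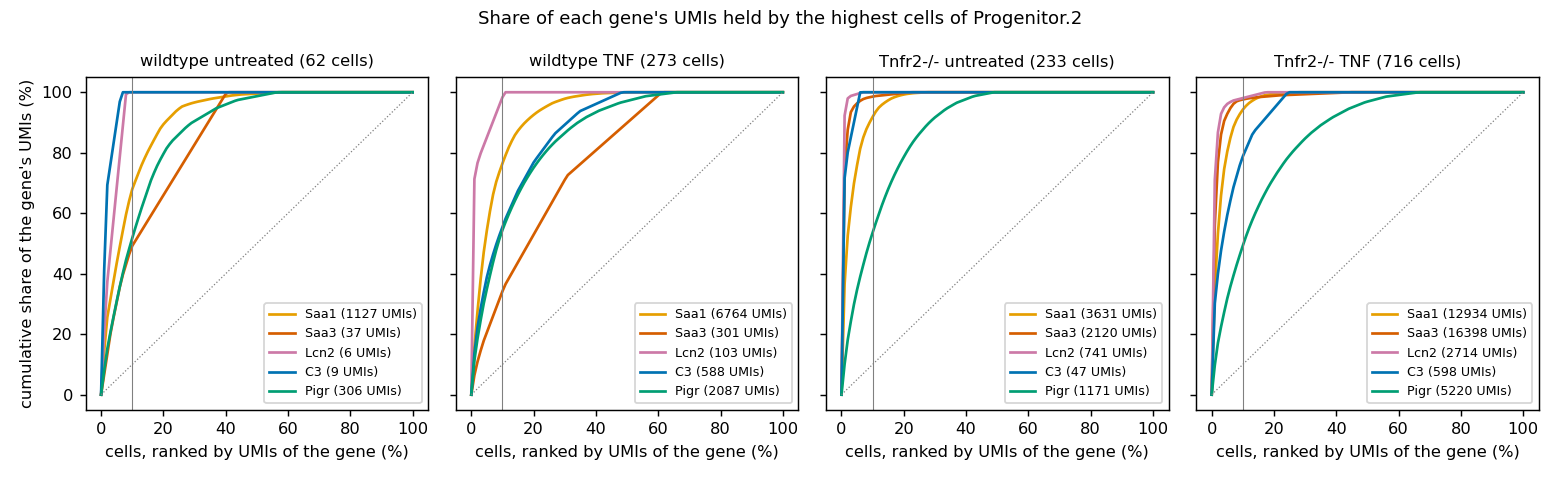
Cumulative share (%) of the UMIs of Saa1, Saa3, Lcn2, C3 and Pigr in Progenitor.2 against the share of cells (%), ranked by their UMIs of that gene, in each library. The thin vertical line marks the highest 10% of cells and the dotted diagonal an even spread, and the number of UMIs is given because few UMIs can only lie in few cells. Saa3 and Lcn2 reach nearly 100% at the line in both Tnfr2-/- libraries, whereas Pigr reaches 49.5% to 54.1%.

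Lcn2 was higher in Tnfr2-/- than in wildtype under both treatments, in the sums over each compartment. In mesenchymal cells it was at 1515, 1615, 4048 and 3898 CPM, with both Tnfr2-/- libraries above both wildtype libraries. Tnfr2-/- minus wildtype was 1.42 untreated (2.67-fold) and 1.27 with TNF (2.41-fold), and TNF minus untreated was 0.09 in wildtype and -0.05 in Tnfr2-/-. Within Mesenchyme-Ptges the untreated difference went the other way (log2 -0.91), with 1825, 1621, 973 and 3898 CPM, while that with TNF was 1.27. TNF minus untreated in Tnfr2-/- was 2.00 for Lcn2 in that class, where it was -1.12 for Saa3. Mesenchyme-generic was at 898 CPM in wildtype and 6059 CPM in Tnfr2-/- untreated.

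In epithelial cells Lcn2 was at 2.44 (2.03–2.92), 5.80 (5.09–6.59), 21.3 (20.1–22.6) and 69.3 (66.8–72) CPM. Tnfr2-/- minus wildtype was 2.70 untreated (8.72-fold) and 3.37 with TNF (11.9-fold), and TNF minus untreated was 1.66 in Tnfr2-/-. In Progenitor.2 the level was 3.57, 8.12, 74.8 and 80.4 CPM, higher in Tnfr2-/- by 20.9-fold untreated (9.57 to 57.2) and by 9.91-fold with TNF (8.13 to 12.2). In Progenitor.1 it was at 2.86, 3.18, 8.74 and 7.22 CPM, under the minimum.

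As with Saa3, few cells carried Lcn2 in the epithelium. In Progenitor.2 of Tnfr2-/- TNF the highest 10% held 98.1% of its UMIs, at 700 CPM against 1.74 CPM in the rest. In Tnfr2-/- untreated 1 cell held 73.1% (542 of 741 UMIs), and the class was at 20.2 CPM without it. Over all epithelial cells of that library the level without its highest cell was 10.6 CPM, which is under the minimum. Without the highest cell of each library the untreated difference between genotypes was 1.84 on the log2 scale, from 2.70, and no longer counted. The highest 10% of cells for Saa3 and for Lcn2 shared 24 of 72 cells (33.3% of each) in Progenitor.2 of Tnfr2-/- TNF. Those for Saa3 and C3 shared 27 of 72, and those for Lcn2 and C3 shared 25. Those for Pigr shared 4 with Saa3, 6 with Lcn2, 10 with Cfb, 13 with C3 and 17 with Saa1. Each such group was 10.1% of the cells, which is the share of it that an unrelated ranking would hold. Over its 716 cells, Spearman's rho was 0.21 between Saa3 and Lcn2, 0.22 between Saa1 and Saa3, 0.24 between Saa3 and C3 and 0.27 between Lcn2 and C3. These are weak values in sparse counts of 1 library.

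Immune cells are another source of Lcn2 and Saa3, and 9 immune markers were measured beside them. In epithelial cells the markers summed to 3.18, 6.89, 80.5 and 237 CPM, of which S100a8, a calcium-binding protein of neutrophils that stressed epithelium can also express, made up 0.159, 1.67, 72.3 and 217 CPM. Ptprc, which encodes the pan-leukocyte marker CD45, was at 0.0199, 0.0725, 0.0197 and 0 CPM, and Lyz2 at 0.119, 0.145, 0.118 and 0 CPM. In the highest 10% of Progenitor.2 cells for Lcn2 in Tnfr2-/- TNF, S100a8 was at 1677 CPM against 74.5 CPM in the rest, and Ptprc had 0 UMIs. In the highest 10% for Saa3 there, S100a8 was at 423 CPM against 239. In mesenchymal cells the 9 markers summed to 21.3, 829, 249 and 633 CPM, of which S100a8 made up 16.1, 827, 246 and 611 CPM, so this sum was higher in both TNF libraries and in Tnfr2-/- untreated than in wildtype untreated. Ptprc had 0 UMIs in the mesenchymal cells of all 4 libraries, and 3 or 4 of the 9 markers were at 0. S100a8 was singled out after its values were seen. The part of such cells in the Saa3, Lcn2 and C3 values of either compartment was not tested.

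Hp (ENSMUSG00000031722; chromosome 8, 109575128 to 109579172, minus strand, 5 exons) encodes haptoglobin, which binds free hemoglobin. It was at or under 0.750 CPM in epithelial cells of all 4 libraries. In mesenchymal cells it was at 163 (159–168), 372 (362–382), 164 (147–181) and 98.5 (89.8–108) CPM. The wildtype TNF library stood highest, 2.28-fold above wildtype untreated (log2 1.18), and Tnfr2-/- TNF was 3.78-fold below wildtype TNF (log2 -1.91). Within Mesenchyme-Ptges it was at 400, 374, 8.41 and 98.5 CPM, so the difference of TNF minus untreated in wildtype was -0.10 in that class. Tnfr2-/- minus wildtype in the class was -5.41 untreated and -1.91 with TNF. The untreated Tnfr2-/- value came from few UMIs in 37 cells. In Mesenchyme-Ptges the highest 10% of cells held 90.8% of the UMIs of Hp in wildtype TNF (30 of 304 cells) and 88.7% in Tnfr2-/- TNF (12 of 122), where the shares for Saa3 were 52.1% and 59.5%.

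Serpina3n (ENSMUSG00000021091; chromosome 12, 104406729 to 104414329, plus strand, 5 exons), an inhibitor of serine proteases, was lower with TNF in both genotypes. In mesenchymal cells it was at 1342 (1330–1355), 119 (114–125), 1125 (1081–1171) and 186 (174–199) CPM. It was 11.3-fold lower with TNF in wildtype (log2 -3.48) and 6.04-fold lower in Tnfr2-/- (log2 -2.59). The direction was the same within Mesenchyme-Ptges, at 753, 115, 484 and 186 CPM (log2 -2.70 and -1.37). Mesenchyme-generic was at 1786 and 1508 CPM in the untreated libraries and Mesenchyme-Ifitm1 at 1274. After thinning, 91.5%, 28.9%, 93.0% and 43.3% of mesenchymal cells had a UMI of Serpina3n, and at most 0.829% of epithelial cells. Unthinned, the mesenchymal shares were 98.4%, 66.0%, 100% and 86.9%. Serpina3n has close relatives in a gene cluster, and how reads shared between them were counted was not tested.

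C3 was at 662 (654–671), 494 (483–505), 1110 (1066–1155) and 875 (848–902) CPM in mesenchymal cells. None of the 4 comparisons reached 2-fold there. Within Mesenchyme-Ptges the level was 1048, 495, 906 and 875 CPM, with TNF minus untreated of -1.08 in wildtype and -0.05 in Tnfr2-/-.

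In epithelial cells C3 was higher with TNF, and most so in wildtype. It was at 1.79 (1.44–2.20), 46.5 (44.4–48.6), 1.99 (1.62–2.42) and 16.2 (15.0–17.5) CPM. With TNF it was 26-fold higher in wildtype (log2 4.09; 21.0 to 32.5) and 8.13-fold higher in Tnfr2-/- (log2 2.52), where it did not reach the 20 CPM minimum. With TNF it was 2.86-fold lower in Tnfr2-/- than in wildtype (log2 -1.46), and untreated the genotypes differed by 0.10.

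In wildtype, C3 was higher with TNF in all 6 epithelial classes that both libraries held, Enteroendocrine and Progenitor.3 staying under the 20 CPM minimum. In Progenitor.1 C3 was at 1.66, 55, 1.47 and 8.39 CPM, which is 33.1-fold higher with TNF in wildtype (24.6 to 45.5) and 5.70-fold higher in Tnfr2-/-. In Progenitor.2 it was at 5.36, 46.4, 4.74 and 17.7 CPM, with TNF minus untreated of 2.90 and 1.70. Absorptive cells went from 2.06 to 35.9 CPM in wildtype, Secretory-Reg4-Spdef-Lyz1 from 0.705 to 36.9 CPM, Progenitor.3 from 0 UMIs to 17 CPM and Enteroendocrine from 0 UMIs to 10.3 CPM. Tnfr2-/- minus wildtype with TNF was -2.58 in Progenitor.1 and -1.34 in Progenitor.2.

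The share of epithelial cells with a UMI of C3 had the same order of libraries as its level. After thinning to 5000 UMIs, 0.553% (0.203–1.20), 15.1% (12.8–17.7), 0.707% (0.285–1.45) and 5.44% (4.01–7.19) of epithelial cells had a UMI of C3, the intervals here being exact Clopper-Pearson ones. The unthinned shares were 6.38%, 39.0%, 4.79% and 23.4%, and the thinned mesenchymal shares were 81.0%, 76.2%, 91.9% and 88.3%. In Progenitor.1 the thinned shares were 0.366%, 20.0%, 0.621% and 5.32%. Serpina3n, another mesenchymal gene, had a UMI in 0.829%, 0%, 0.202% and 0% of thinned epithelial cells. Its mesenchymal level was itself lower with TNF (1342 to 119 CPM in wildtype, 1125 to 186 CPM in Tnfr2-/-). Its low share in the TNF libraries therefore says little about the source of C3 there. In Progenitor.2 of wildtype TNF the highest 10% of cells held 55.1% of the UMIs of C3 and the rest stood at 23.9 CPM. In Progenitor.2 of Tnfr2-/- TNF the highest 10% held 78.9% and the rest stood at 4.16 CPM.

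Cfb (ENSMUSG00000090231; chromosome 17, 34856374 to 34862518, minus strand, 18 exons) encodes complement factor B, the protease of the alternative route of complement. It was low. In epithelial cells it was at 2.50, 3.97, 5.03 and 10.2 CPM, under the minimum in all 4. In mesenchymal cells it was at 6.35 (5.54–7.24), 23.6 (21.2–26.2), 26.6 (20.2–34.4) and 24.1 (19.9–28.9) CPM, with wildtype untreated lowest and overlapping intervals among the other 3. TNF minus untreated was 1.74 in wildtype and -0.14 in Tnfr2-/-, and Tnfr2-/- minus wildtype was 1.91 untreated and 0.03 with TNF. Within Mesenchyme-Ptges it was at 23.4, 23.5, 6.00 and 24.1 CPM, so the wildtype values differed little and the untreated genotype difference went the other way (log2 -1.80, from few UMIs).

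Pigr (ENSMUSG00000026417; chromosome 1, 130826684 to 130852249, plus strand, 11 exons) encodes the receptor that carries IgA across the epithelium. In epithelial cells it was at 247 (242–251), 263 (258–268), 118 (115–121) and 167 (163–171) CPM, and at most 3.53 CPM in mesenchymal cells. It was 2.09-fold lower in Tnfr2-/- untreated (log2 -1.06) and lower by less than 2-fold with TNF (log2 -0.65). TNF minus untreated was 0.09 and 0.50. Every epithelial class held it. In Progenitor.1 it was at 204, 279, 112 and 230 CPM, in Progenitor.2 at 182, 164, 118 and 155 CPM, and in Secretory-Reg4-Spdef-Lyz1 at 405, 430, 189 and 194 CPM. Tnfr2-/- minus wildtype untreated was -0.86 in Progenitor.1 and -0.62 in Progenitor.2, below 2-fold in both. After thinning, 51.7%, 51.4%, 29.6% and 41.5% of epithelial cells had a UMI of Pigr, and at most 0.847% of mesenchymal cells (unthinned 70.9%, 67.8%, 54.5% and 68.1% of epithelial cells). Unlike Saa3 and Lcn2, 49.5% to 54.1% of its UMIs in Progenitor.2 were in the highest 10% of cells.

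Counts of the 9 genes past 2-fold and the minimum were as follows. In epithelial cells with TNF in wildtype, 4 genes passed the minimum, 2 were higher (Saa3, C3) and 1 lower (Saa1), with a background of 2.54% higher and 1.08% lower over all genes. With TNF in Tnfr2-/-, 3 of 4 were higher (Saa1, Saa3, Lcn2) and 0 lower, with a background of 5.55% and 7.81%. For Tnfr2-/- minus wildtype untreated, 2 of 4 were higher (Saa3, Lcn2) and 2 lower (Saa1, Pigr), with a background of 2.42% and 3.59%. With TNF, 2 of 5 were higher (Saa3, Lcn2) and 1 lower (C3), with a background of 5.04% and 6.37%. The genes that passed the minimum did so partly through the library in which they were high.

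Within Progenitor.1, 3, 2, 2 and 3 genes passed the minimum in these comparisons, and within Progenitor.2 it was 4, 4, 4 and 5. With TNF in wildtype C3 was higher in both classes, with backgrounds of 1.84% and 4.28%, and 0 were lower (0.615% and 3.18%). With TNF in Tnfr2-/- Saa3 was higher in both (backgrounds 1.08% and 0.844%), Pigr also in Progenitor.1 (2.05-fold), and 0 were lower (0.933% and 1.14%). For Tnfr2-/- minus wildtype untreated, Saa3 was higher in both and Lcn2 in Progenitor.2 (1.15% and 4.32%), with 0 lower (1.1% and 3.66%). With TNF the same held for higher genes (1.29% and 2.99%), and C3 was lower in both (2.04% and 4.93%).

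In mesenchymal cells with TNF in wildtype, 6 genes passed the minimum, 2 were higher (Hp, Cfb) and 1 lower (Serpina3n), with a background of 6.03% and 7.21%. With TNF in Tnfr2-/-, 1 of 7 was higher (Saa1) and 2 lower (Saa3, Serpina3n), with a background of 5.71% and 6.74%. For Tnfr2-/- minus wildtype untreated, 3 of 6 were higher (Saa3, Lcn2, Cfb) and 0 lower, with a background of 3.84% and 3.95%. With TNF, 2 of 7 were higher (Saa1, Lcn2) and 1 lower (Hp), with a background of 6.09% and 8.42%.

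Within Mesenchyme-Ptges the counts differed from those over all mesenchymal cells. With TNF in wildtype 0 were higher (background 13.4%) and 2 lower (C3, Serpina3n; 11%). With TNF in Tnfr2-/- 4 were higher (Saa1, Lcn2, Hp, Cfb; 5.08%) and 2 lower (Saa3, Serpina3n; 3.63%). In the untreated Tnfr2-/- cells of this class Saa1 was at 0 CPM, and Hp (8.41 CPM) and Cfb (6.00 CPM) rested on few UMIs. For Tnfr2-/- minus wildtype untreated 1 was higher (Saa3; 10.7%) and 2 lower (Hp, Cfb; 14%), and with TNF 2 were higher (Saa1, Lcn2; 6.13%) and 1 lower (Hp; 8.52%). Serpina3n with TNF, Saa1 and Saa3 with TNF in Tnfr2-/-, and Saa3 between the untreated genotypes thus kept the direction they had over all mesenchymal cells. So did Saa1, Lcn2 and Hp between the genotypes with TNF. There the class was 304 of 306 and 122 of 122 mesenchymal cells, so the 2 sets of values were nearly the same.

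Some genes passed 2-fold the same way in both pairs of a comparison. These pairs share no library, but each library enters a TNF and a genotype comparison. With TNF in both genotypes, Saa3 was higher in epithelial cells (background 0.92%) and 0 of the 9 were lower (0.0721%). In wildtype TNF, Secretory-Reg4-Ang4, where mesenchymal markers also stood high, held 921 of the 1977 epithelial UMIs of Saa3. Without that class Saa3 was under 2-fold in wildtype, and its difference was 0.60 in Progenitor.1 and 0.10 in Progenitor.2. In mesenchymal cells 0 were higher with TNF in both genotypes (2.77%) and Serpina3n was lower (3.51%). Between genotypes under both treatments, Saa3 and Lcn2 were higher in epithelial cells of Tnfr2-/- (1.13%) and 0 were lower (1.41%). In mesenchymal cells Lcn2 was higher under both (1.67%) and 0 were lower (1.4%). Within Progenitor.1 Saa3 was higher between genotypes under both treatments (0.367%), and within Progenitor.2 Saa3 and Lcn2 were (1.1%). With TNF in both genotypes, 0 were higher within Progenitor.1 (0.286%) and 0 within Progenitor.2 (0.417%). Within Mesenchyme-Ptges Serpina3n was lower with TNF in both (1.39%), and 0 of the 9 differed between genotypes the same way under both treatments (3.03% higher and 2.04% lower).

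**Figure D5:**
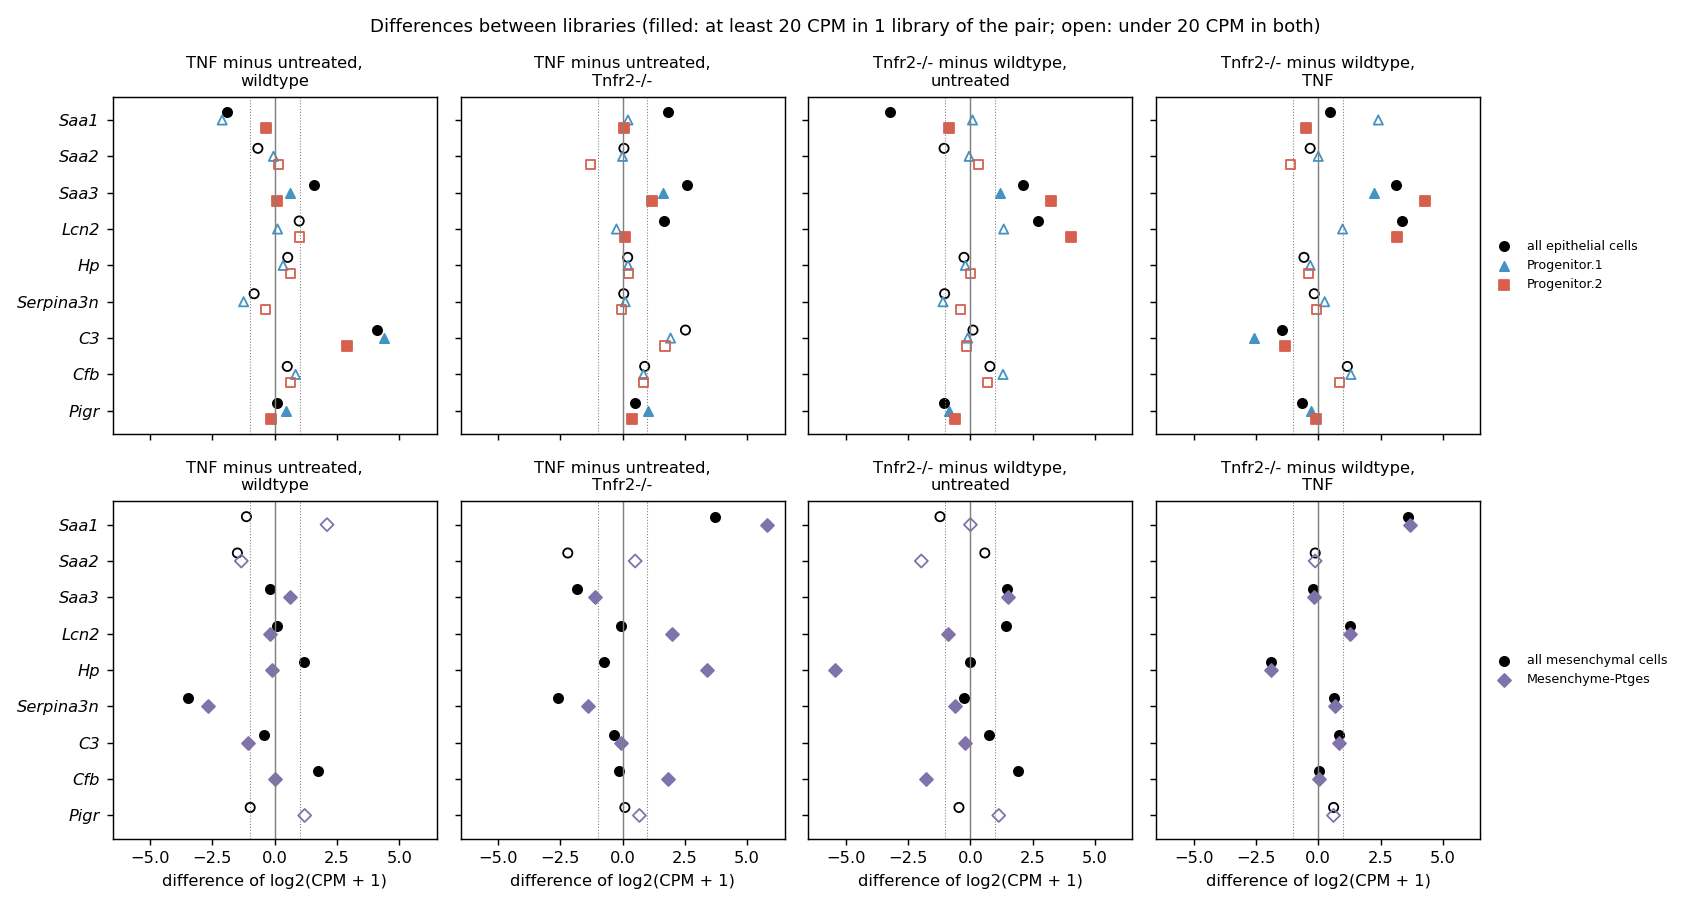
Difference of log2(CPM + 1) between 2 libraries for each gene, over all epithelial cells, Progenitor.1 and Progenitor.2 (upper row) and over all mesenchymal cells and Mesenchyme-Ptges (lower row). Filled symbols reached 20 CPM in 1 library of the pair, and dotted lines mark 2-fold. C3 with TNF in wildtype and Saa3 between genotypes stand past 2-fold in the epithelial sum and in both classes, whereas epithelial Saa1 is past it with filled symbols in the sum alone.

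Among mesenchymal cells Saa3 was correlated with the other mesenchymal genes, to a degree that differed by class. Over the 304 cells of Mesenchyme-Ptges in wildtype TNF, Spearman's rho of Saa3 was 0.64 with Lcn2, 0.68 with Hp, 0.66 with C3 and 0.59 with Serpina3n, and -0.05 with the UMI total of the cell. Over the 122 cells of the class in Tnfr2-/- TNF it was 0.65 with Lcn2, 0.62 with C3 and 0.55 with Serpina3n. The highest 10% of cells for Saa3 and Hp shared 20 of 30 cells in wildtype TNF and 8 of 12 in Tnfr2-/- TNF. Such a group was 9.87% and 9.84% of the cells of the class in these libraries. Over the 892 cells of Mesenchyme-Ifitm1 rho of Saa3 was 0.42 with Lcn2, 0.34 with Hp, 0.50 with C3 and 0.52 with Serpina3n. Lcn2 and Serpina3n were at 0.17 there. Over the 393 cells of Mesenchyme-generic in wildtype untreated, rho of Saa3 was 0.28 to 0.42 with these genes, while it was 0.06 between Lcn2 and C3, 0.14 between Lcn2 and Serpina3n and 0.15 between C3 and Serpina3n. Cells of a class share a library, and the values are descriptions.

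Across the 27 pairs of class and library, the gene most like each member among 10113 genes was found by Pearson's r of log2(CPM + 1). The pairs share libraries and cultures, and the contrast of epithelium with mesenchyme dominates them. Saa3 was nearest to Lcn2 (r = 0.97), Gpc1 (0.97) and Angptl2 (0.96), and Lcn2 to Gpc1, Angptl2 and Saa3 (0.97 each). Saa1 was nearest to 2010109I03Rik (0.92), Muc16 (0.92) and Chp1 (0.91), and Pigr to Ceacam1 (0.98), Tmem30b (0.98) and Muc13 (0.97). Hp was nearest to Gldn (0.98), Serpina3n to Scarf2 (0.99), C3 to B2m (0.95) and Cfb to Rasa1 (0.83). Most of these nearest genes depended on the measure. Ranked by Spearman's rho, the nearest gene was Csf1 for Saa3 (0.91), Ccbe1 for Lcn2 (0.91) and Muc16 for Saa1 (0.83). It was Glipr2 for Hp, Lum for Serpina3n, Mmp3 for C3 and Jak2 for Cfb, and remained Ceacam1 for Pigr. Among members, Saa3 had r of 0.90 with Hp, 0.90 with C3, 0.91 with Serpina3n, -0.85 with Pigr and -0.15 with Saa1.

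Other genes of these pathways were taken from lists that stand apart from the 9. Of 34 further acute-phase genes in mesenchymal cells, 10 passed the minimum in each TNF comparison. With TNF, 2 of the 10 were higher and 4 lower in wildtype, and 2 higher and 6 lower in Tnfr2-/-. The background stood at 6.03% (higher) and 7.21% (lower) for wildtype, against 5.71% and 6.74% for Tnfr2-/-. The median difference was -0.71 and -1.42, beside 0.00 and -0.11 over all genes. Within Mesenchyme-Ptges 1 of 7 was higher and 2 lower in wildtype (13.4% and 11% of all genes), and 0 of 8 higher and 2 lower in Tnfr2-/- (5.08% and 3.63%). The metallothioneins Mt1 and Mt2, which bind zinc and copper, were higher with TNF in both genotypes, Mt2 at 262, 1879, 1041 and 2284 CPM. Within Mesenchyme-Ptges the difference of Mt2 was 2.07 in wildtype and 0.41 in Tnfr2-/-, and that of Mt1 1.00 and 0.42, so that of these 4 values Mt2 in wildtype alone passed 2-fold. The relatives of Serpina3n named Serpina3f, Serpina3g and Serpina3m were lower with TNF in both, Serpina3m at 190, 6.05, 138 and 14.7 CPM. Within Mesenchyme-Ptges Serpina3m was at 84.7, 6.02, 39.6 and 14.7 CPM, and Serpina3f and Serpina3g were under the minimum. Cp, which encodes the copper-carrying ceruloplasmin, was higher in Tnfr2-/- under both treatments, at 744, 393, 1794 and 858 CPM. In that class it was at 1083, 391, 1254 and 858 CPM, and the untreated difference was 0.21.

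Of 20 further complement components, 0 passed the minimum in epithelial cells in any comparison. In mesenchymal cells 5 passed with TNF, of which 0 were higher and 3 lower in wildtype and 2 lower in Tnfr2-/- (7.21% and 6.74% of all genes were lower). Within Mesenchyme-Ptges 4 of 5 were lower in wildtype and 1 of 5 in Tnfr2-/- (11% and 3.63%), with 0 higher. C4b, a component of the classical route, was at 57.9, 2.38, 74.4 and 6.71 CPM and C1ra, a protease of that route, at 135, 28.4, 149 and 60.8 CPM. Within Mesenchyme-Ptges TNF minus untreated was -5.15 and -2.12 for C4b and -2.61 and -0.67 for C1ra. C2, which works with C4b, was higher in Tnfr2-/- under both treatments, at 66.8, 32.2, 149 and 109 CPM, though by only 0.34 within that class when untreated. Of 16 complement regulators and receptors, 5 passed in mesenchymal cells with TNF, of which 4 were lower in wildtype and 2 in Tnfr2-/- (7.21% and 6.74% of all genes). Within Mesenchyme-Ptges 4 passed, of which 3 were lower in wildtype (11% of all genes). In Tnfr2-/- 1 was higher and 0 lower there (5.08% and 3.63%). Serping1, the inhibitor of the classical route, was at 895, 198, 988 and 463 CPM, and in that class at 660, 196, 675 and 463 CPM. Clu, a regulator of the terminal step, was higher in Tnfr2-/- in the sums over both compartments. In mesenchymal cells it was at 28.2, 5.78, 95.1 and 165 CPM. The 5 epithelial markers in mesenchymal cells of Tnfr2-/- TNF stood at 4.06% to 10.3% of their epithelial level, and 13.9% of those cells were mixed. The part of epithelial RNA in the mesenchymal Clu values was not tested. In epithelial cells Clu was at 343, 399, 806 and 1556 CPM. Within Progenitor.1 and Progenitor.2 the epithelial difference was not past 2-fold, at -0.68 and -0.24 in Progenitor.1 and at 0.77 and 0.72 in Progenitor.2.

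Of 27 inducers and transcription factors, 9 to 12 passed the minimum in epithelial cells and 18 or 19 in mesenchymal cells. In epithelial cells 2 were higher with TNF in wildtype (2.54% of all genes) and 1 in Tnfr2-/- (5.55%), and 2 were higher in Tnfr2-/- than in wildtype untreated (2.42%) and 2 with TNF (5.04%). Il17rc, a subunit of the interleukin 17 receptor, was lower in Tnfr2-/- untreated (log2 -1.07; 3.59% of all genes), and no other was lower. Nfkbiz, a nuclear partner of NF-kB, was among the latter, at 15.8, 23.7, 38.0 and 50.005 CPM, but was higher by less than 2-fold within Progenitor.1 (0.98 and 0.40) and Progenitor.2 (0.94 and 0.81). In mesenchymal cells 5 were higher and 1 lower with TNF in wildtype (6.03% and 7.21% of all genes). In Tnfr2-/- 1 was higher and 3 lower (5.71% and 6.74%). Within Mesenchyme-Ptges 3 were higher and 2 lower in wildtype (13.4% and 11% of all genes), and 2 higher and 0 lower in Tnfr2-/- (5.08% and 3.63%). Il11, a cytokine that acts through STAT factors, was higher with TNF in both, at 65.5, 350, 11.5 and 260 CPM, as it was within that class (log2 2.25 and 5.49). Of 11 receptors and binding partners of the members, 2 passed in mesenchymal cells, and Tlr2, a receptor that serum amyloid A can engage, was higher in Tnfr2-/-, at 40.7, 39.5, 152 and 81.9 CPM. Within Mesenchyme-Ptges the difference of Tlr2 was 0.72 untreated and 1.06 with TNF. Of these 11 partners, 0 passed the minimum in epithelial cells.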

How the data were processed

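Single-cell RNA-seq of 4 cultures was used. The deposited matrix held UMI counts, whole numbers per gene and cell, which the authors made with Cell Ranger 5.0.0 on mm10 (per the submitters' processing notes) and loaded in monocle3. Per the study's methods, cells under 100 UMIs and doublets of epithelial and mesenchymal cells were removed before deposit, and the lowest cell held 894 UMIs. A deposited size factor (a score per cell) and plotting coordinates were not used here. Libraries were matched to groups by the genotype and treatment in the deposited cell table, and classes were the authors' annotation.

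For each library the counts of a class or compartment were added up and scaled to CPM. Differences are of log2(CPM + 1), and a gene counted past the threshold had at least a 2-fold difference and 20 CPM in 1 library of the pair. With 1 library per group no test was made. Library totals were 44547639 to 87228093 UMIs. Intervals are exact Poisson (CPM) or Clopper-Pearson (shares) at 95%, the limit for a count of 0 is 3 counts, and both cover counting error only. Shares of cells were taken after thinning to 5000 UMIs, which left out 405 cells with fewer UMIs, among them most of Secretory-Reg4-Ang4. Scrublet, at an expected rate of 0.06, called 47 of 6155 cells (0.764%; 25 had no class), and these were left out only in an alternative. Mixed cells were epithelial cells with at least 5 UMIs of Col1a1, Col1a2, Col3a1 and Dcn together. Mesenchymal cells with at least 20 UMIs of Krt8, Krt18, Epcam and Cldn7 together were also mixed. These cuts used only part of the listed markers and were not scaled to the UMI total of a cell. The named genes were the 9 members, for each member the 3 genes of highest Pearson's r, and the genes of the other lists that passed the threshold the same way in both pairs of a comparison. The members and lists were chosen with earlier results of these data known. Alternatives were pseudocounts of 0.1 and 10 CPM, other minimums, TMM and median-of-ratios factors, means over cells, classes weighted equally, single classes, and leaving out classes or shallow cells. Leaving out mixed cells, or the highest cell of each gene, was chosen after seeing the data. Scripts were tested on simulated data. Positions came from GENCODE M21 and promoters from RefSeq, both on GRCm38. Software was Python 3.11.15 with scanpy 1.11.5, scipy 1.17.1, numpy 2.4.6, pandas 2.3.3 and Biopython 1.88, and R 4.3.3 with edgeR 4.0.16 for the TMM factors.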

Additional observations from a re-analysis of the deposited data

Results flagged for a closer look

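The TNF effect on Saa1 in epithelial cells went opposite ways in the genotypes. Saa1 was lower with TNF in wildtype (log2 -1.90) and higher with TNF in Tnfr2-/- (log2 1.82), which makes a difference between the effects of 3.72 on the log2 scale. It is listed here because the single culture of each genotype moved in the opposite direction and both differences were past 2-fold. The difference between the effects was not tested, since each group had 1 library. Within Progenitor.2, the class that held most of the epithelial Saa1 UMIs in 3 of the 4 libraries, the effects were -0.33 and 0.06.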

How the results depend on the processing

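No paired analysis was possible because each group had 1 library and the labels carry no replicate numbers, and for the same reason no replicate could be left out. Depth was no limit for the epithelial sums, but Saa2 and epithelial Cfb, Hp and Serpina3n were too low for a comparison. The mesenchymal sum held 2177022 UMIs in Tnfr2-/- untreated, against 34799420 in wildtype untreated. In the former, mesenchymal Saa1 rested on 7 UMIs, Pigr on 5 and Cfb on 58, so depth was a limit for these. Depth was also a limit within Mesenchyme-Ptges, which held 342542 UMIs in wildtype untreated and 832661 in Tnfr2-/- untreated. Of the log2 differences, 567 values under the alternatives lay within the counting interval of the reported one, 287 moved past it in the same direction and 10 reversed. Of the counts of genes, 191 stayed within 1.5 times and 33 did not. With Spearman's rho in place of Pearson's r, the genes most like a member moved for 6 members and stayed for 2. Where values changed, the cause was not tested, beyond the fewer or other cells that an alternative holds.

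With the classes weighted equally, TNF minus untreated of epithelial Saa1 in Tnfr2-/- was -1.73, Tnfr2-/- minus wildtype with TNF was -1.21 for Saa3 and -0.10 for Lcn2, and TNF minus untreated of mesenchymal Hp in wildtype was -0.68. The single Absorptive cell of the Tnfr2-/- TNF library then weighs as much as 716 Progenitor.2 cells. Within Progenitor.1, TNF minus untreated of Lcn2 in Tnfr2-/- was -0.25 and Tnfr2-/- minus wildtype of Saa1 untreated was 0.0839. Within Mesenchyme-Ptges, TNF minus untreated of Hp in wildtype was -0.10, and Tnfr2-/- minus wildtype untreated was -0.91 for Lcn2 and -1.80 for Cfb. Without mixed cells mesenchymal Saa1 in Tnfr2-/- minus wildtype with TNF was -0.17.

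Counts of genes moved as follows. For epithelial TNF in wildtype, 1 gene (C3, no longer Saa3) was higher without Secretory-Reg4-Ang4, within Progenitor.1 and within Progenitor.2. Within either progenitor class or with equal weights, 0 were lower. For epithelial TNF in Tnfr2-/-, 1 was higher within Progenitor.2, and 1 higher and 1 lower with equal weights. For epithelial Tnfr2-/- minus wildtype untreated, 1 was higher with equal weights, within Progenitor.1 or without the highest cell of each gene, 0 were lower with equal weights or within Progenitor.1 or Progenitor.2, and 4 were lower with no minimum. With TNF, 1 was higher by the mean over cells or within Progenitor.1, and 0 were higher and 3 lower with equal weights. For mesenchymal TNF in wildtype, 0 were higher within Mesenchyme-Ptges, 2 were lower there, with equal weights or with a minimum of 5 CPM, and 3 were lower with no minimum. For mesenchymal TNF in Tnfr2-/-, 0 were higher without mixed cells and 4 within Mesenchyme-Ptges. For mesenchymal Tnfr2-/- minus wildtype untreated, 1 was higher and 2 were lower within Mesenchyme-Ptges, and 1 was lower with no minimum or a minimum of 5 CPM. With TNF, 1 was higher without mixed cells and 2 were lower with equal weights.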
